A study of Drosophila melanogaster with 5 samples.

Results

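The genes of the proteasome subunits were followed through 5 lists of translated ORFs from *D. melanogaster* S2 cells. A gene was taken when an ORF of any list lay inside its span and inside that of no other protein-coding gene, and when its symbol began with Prosalpha, Prosbeta, Rpn or Rpt and a digit. The rule used names and positions and no measured value. It found 32 of the 6151 genes with an ORF in any list, and 52 of 23277 ORFs by identifier. Each of the 32 genes had ORFs at 1 stop codon, all called as CCDS ORFs, that is, overlapping annotated coding sequence.

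S2 cells are a line derived from late embryos with features of hemocytes, the blood cells of the fly. In Ribo-Seq the fragments of mRNA shielded by ribosomes during RNase digestion are sequenced, and a P-site is the position of the ribosome's peptidyl site read from such a footprint. The study compared cycloheximide, which stalls elongating ribosomes, and RNases in lysis buffers of different ionic strength. The lists are named E+ (E-RNaseI, Buffer 2, with cycloheximide), deep E- and E- (E-RNaseI, Buffer 2, without cycloheximide, a deep and a standard sample), A+ (A-RNaseI, Buffer 1, with cycloheximide) and A- (A-RNaseI, Buffer 1, without cycloheximide).

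For E+ and A+ the cells received cycloheximide for 3 min before harvest. The wash and lysis solutions held it for every sample, so that the untreated cells met it as well. Per the labels NaCl was 150 mM in Buffer 1 and 50 mM in Buffer 2, for which the methods give less, and Tris-HCl was 50 mM in Buffer 1 and 100 mM in Buffer 2. Since each RNase was used with 1 buffer, their effects cannot be told apart. Each of the 4 conditions had 1 standard sample, so no difference between conditions could be set against the spread of replicates, no p-value was computed, and every interval below covers counting error alone. The deep and standard E- lists differed by about the sampling noise (dispersion 1.02, with 1 expected from counting alone) and were counted as 1 sample. The dispersion was 4.17 to 6.69 between standard lists of different conditions, and 13.8 and 6.87 where E+ and A- were set against deep E-. Neither the labels nor the methods tell if the deep sample was a further run of the E- library or came from other cells, so deep E- and E- are not treated as independent of each other.

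The proteasome degrades proteins that carry ubiquitin. Its core particle is a barrel of alpha rings, which gate the entry of substrates, around beta rings, which hold the proteolytic sites. The regulatory particle has a base, with the Rpt ATPases that unfold substrates and the subunits that bind ubiquitin, and a lid, with the deubiquitinase Rpn11. The annotation also holds paralogs of several subunits, many of them known for use in the testis.

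The 5 lists held 10503 (E+), 12048 (deep E-), 8456 (E-), 7678 (A+) and 6621 (A-) ORFs. Depth was read from the ORFs common to all lists, which held 911539 P-sites in E+, 4214960 in deep E-, 297263 in E-, 454627 in A+ and 320581 in A-. Of 10 markers of hemocyte-like cells, srp, ush, Pxn and crq had an ORF in every list, Hml, eater and vkg in deep E- alone, Col4a1 in 3 lists, and He and NimC1 in none. No marker of muscle (0 of 3) or neurons (0 of 3) had an ORF. Of 8 markers of testis and germ line, bam had 44 P-sites in deep E- and 8 in E-, bgcn had 6 in deep E-, and the others had no ORF.

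Levels are given in a pair of measures. The density is the number of P-sites per 100 nt of ORF, which allows genes to be compared within a list. The scaled level is the density per 1000000 P-sites on the common ORFs, which allows lists to be compared. Both measure ribosomes on the mRNA of a gene, and more mRNA and more ribosomes per mRNA cannot be told apart.

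The subunits were among the more densely occupied genes of the cell. In deep E- the median density of the 30 subunits called in all lists was 306 P-sites per 100 nt, against 28.7 over 6107 genes, a 10.7-fold difference. The same ratio was 8.47 in E+ (5594 genes), 6.85 in E- (4808), 6.07 in A+ (4332) and 5.59 in A- (3864). The genes called differ between lists, so these ratios do not compare the subunits between lists. The scaled median of the 30 subunits was 69.8 in E+, 72.7 in deep E-, 71.3 in E-, 66.9 in A+ and 68.4 in A-. The densities of the 30 subunits lay between the percentiles 79.4 and 97.8 of all genes in deep E-. The lowest percentile was 74.3 in E+, 70.6 in E-, 71.0 in A+ and 67.3 in A-. The members together took 1.16% of P-sites in E+ (95% interval 1.14 to 1.17), 1.18% in deep E-, 1.23% in E-, 1.303% in A+ and 1.41% in A- (1.38 to 1.44). Per 100 P-sites on the common ORFs, whose number is the same in every list, the members had 2.48 in E+, 2.56 in deep E-, 2.55 in E-, 2.58 in A+ and 2.69 in A-.

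The beta ring had the highest densities of the 4 classes and the regulatory particle the lowest. In deep E- the median density was 614 P-sites per 100 nt for the 7 beta subunits and 404 for the 6 alpha subunits, against 251 for the 9 base subunits and 245 for the 8 lid subunits. The scaled class medians kept the core above the regulatory particle in each list, with 142 to 163 for the beta ring, 95.6 to 106 for the alpha ring, 51.6 to 59.6 for the base and 53.3 to 63.7 for the lid. The order of base and lid differed between lists.

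**Figure D1:**
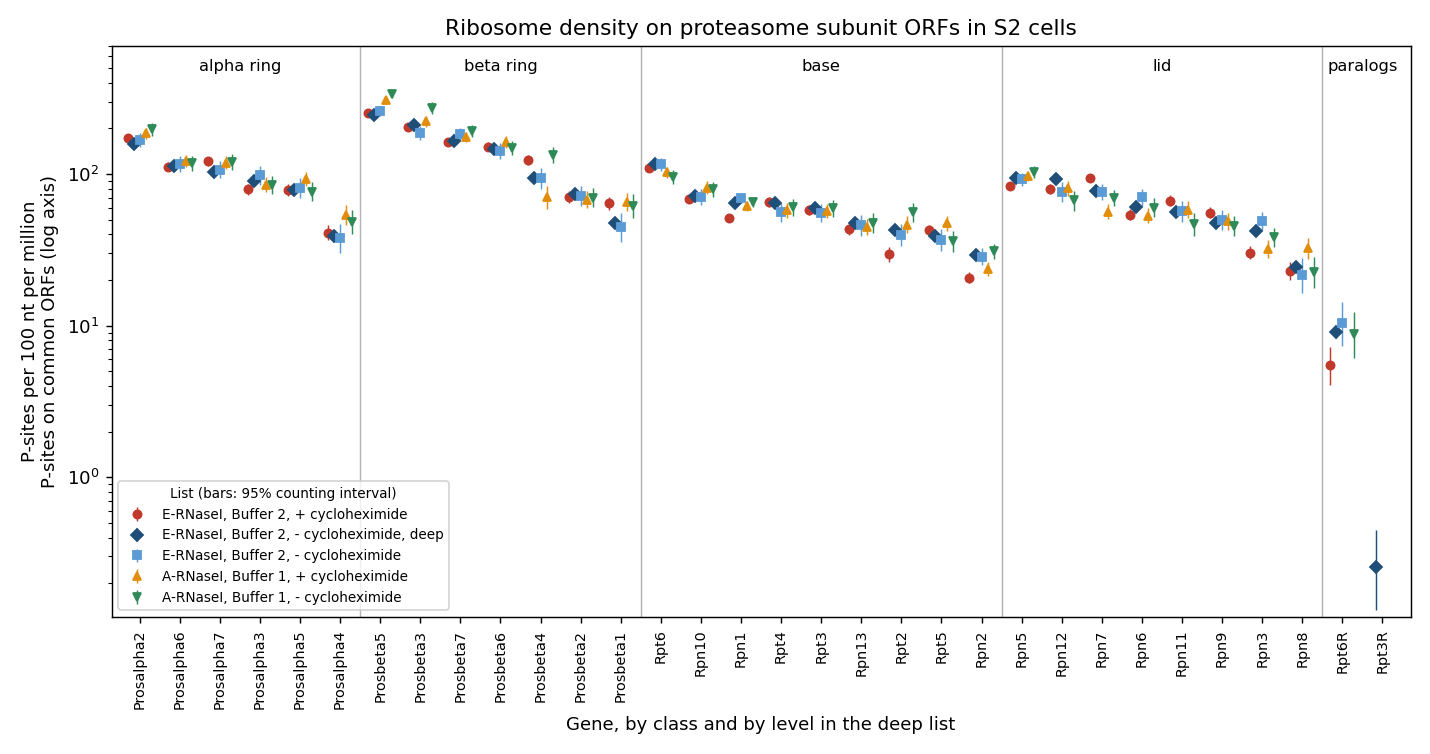
Scaled level (P-sites per 100 nt per 1000000 P-sites on common ORFs, log axis) of each subunit gene in each list, with genes grouped by class and ordered by deep E-. Bars are 95% Poisson intervals for counting error; the 30 subunits of the 4 classes sit well above the paralogs Rpt6R and Rpt3R, and Prosbeta5 is the highest in every list.

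Prosbeta5, the catalytic subunit with chymotrypsin-like activity, was the highest of all subunits. Its ORF of 846 nt lay on chromosome 2R, from 10820074 to 10820982 on the plus strand, in 2 exons (Release 6 coordinates). Its scaled level was 253 in E+, 246 in deep E-, 262 in E-, 307 in A+ and 337 in A-. Both A lists were thus above the E lists.

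Prosbeta3, a structural beta subunit, came next, with 205 in E+, 211 in deep E-, 188 in E-, 222 in A+ and 273 in A-. Its 615 nt ORF lay in 1 exon on the minus strand of 3R (9005457 to 9006070). The other beta subunits with a catalytic site were at the low end of their ring. Prosbeta2, the trypsin-like subunit (3L, 15000069 to 15001220, plus strand), had scaled levels of 70.7 in E+, 73.9 in deep E-, 72.1 in E-, 67.9 in A+ and 70.0 in A-. Prosbeta1, the caspase-like subunit (2R, 16013894 to 16014695, minus strand), had 64.3 in E+, 47.8 in deep E-, 44.6 in E-, 65.8 in A+ and 61.6 in A-. The 3 catalytic subunits thus spanned the ring from its highest to its lowest member, a 5.14-fold range of density in deep E-.

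In the alpha ring Prosalpha2 was the highest and Prosalpha4 the lowest in all 5 lists. Prosalpha2 (3R, 12431442 to 12432460, plus strand, 5 exons) had a scaled level of 173 in E+, 159 in deep E-, 167 in E-, 186 in A+ and 197 in A-. Prosalpha4 (X, 16276419 to 16277308, plus strand, 3 exons) had 41.1 in E+, 39.2 in deep E-, 37.8 in E-, 53.9 in A+ and 48.4 in A-. The range between both was 4.05-fold in deep E-, so the subunits of a ring differed in density although the ring holds each of them once.

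Prosalpha6 was second in deep E-, with 112 in E+, 112 in deep E-, 117 in E-, 122 in A+ and 118 in A-. Prosalpha5 was second from the bottom, with 78.7 in E+, 78.6 in deep E-, 80.9 in E-, 92.9 in A+ and 76.7 in A-. Prosalpha3 and Prosalpha7 lay between them in deep E-, at densities of 376 and 432 P-sites per 100 nt.

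In the base the ATPase Rpt6 stood above the rest. It had a scaled level of 110.2 in E+, 117 in deep E-, 116 in E-, 103 in A+ and 95.5 in A- (X, 21316179 to 21317602, plus strand). Rpn10, a ubiquitin receptor, was second in deep E- among the base subunits kept by the rule, with 68.9 in E+, 71.5 in deep E-, 70.5 in E-, 81.5 in A+ and 79.3 in A-. The lowest of the base was Rpn2, one of its large scaffold subunits (3R, 29153732 to 29157112, plus strand), with 20.8 in E+, 29.2 in deep E-, 28.6 in E-, 23.7 in A+ and 31.1 in A-. Rpn2 was lower in both lists with cycloheximide than in those without it.

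The ATPase Rpt5 was next to last in deep E-, with 42.5 in E+, 38.7 in deep E-, 36.7 in E-, 47.3 in A+ and 36.0 in A-. In contrast to Rpn2, it was higher in both lists with cycloheximide than in the others. Its interval in E+ (38.8 to 46.4) overlapped those in deep E- (37.1 to 40.4) and E- (30.9 to 43.3). The other base subunits, Rpn1, Rpt4, Rpt3, Rpn13 and Rpt2, had densities from 272 (Rpn1, a scaffold) down to 180.4 (Rpt2, an ATPase) P-sites per 100 nt in deep E-.

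In the lid Rpn5 and Rpn12 were highest in deep E-, and their intervals overlapped (387 to 407 and 380.1 to 408 P-sites per 100 nt). Rpn5, a scaffold of the lid, had a scaled level of 83.8 in E+, 94.2 in deep E-, 92.7 in E-, 97.7 in A+ and 103 in A-. Rpn12, which in yeast joins the lid last, had 79.8 in E+, 93.4 in deep E-, 76.0 in E-, 80.5 in A+ and 67.0 in A-. Rpn8, the partner of Rpn11 (2R, 24403191 to 24404272, plus strand), was the lowest lid subunit in 4 lists, with 22.9 in E+, 24.4 in deep E-, 21.6 in E-, 32.3 in A+ and 22.5 in A-. Rpn11 itself, the deubiquitinase, had 66.8 in E+, 55.9 in deep E-, 57.2 in E-, 58.3 in A+ and 46.6 in A-, so that this pair, which forms a dimer, differed 2.29-fold in density in deep E-.

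Rpn3 (2L, 19052055 to 19053598, plus strand) was second from the bottom of the lid in deep E- and the lowest of it in A+. It had 30.3 in E+, 42.1 in deep E-, 49.3 in E-, 31.9 in A+ and 38.3 in A-. Both lists with cycloheximide gave lower values than those without it. The intervals in A+ (27.8 to 36.5) and A- (32.8 to 44.3) overlapped, and the ORF called in A- was shorter.

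The order of the subunits was nearly the same in every list. Over the 30 subunits, Spearman's rank correlation of the densities between pairs of lists was 0.93 to 0.99, as a description over genes that share libraries. In deep E- 12 of 29 neighbours in the order had intervals that did not overlap. These included the step from Prosbeta5 to Prosbeta3 and that from Prosbeta3 to Prosbeta7, while Prosbeta7 and Prosalpha2 were not separated. In the shallower lists fewer neighbours were separated, 7 in E+, 1 in E-, 5 in A+ and 3 in A-. The extremes were the same or nearly so, since Prosbeta5 was highest in all 5 lists and Rpn2 or Rpn8 lowest.

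Long subunits tended to have low densities. Across the 30 subunits the rank correlation between ORF length and density was -0.48 in deep E-, against -0.33 over all 6107 genes. It was -0.60 over subunits and -0.43 over all genes in E+, -0.47 and -0.49 in E-, -0.58 and -0.49 in A+, and -0.54 and -0.51 in A-. Short ORFs with high density were the core subunits, with a median length of 753 nt for the alpha ring and 705 nt for the beta ring in deep E-, against 1239 nt for the base and 1156.5 nt for the lid. Class and length therefore moved together, and their parts were not separated.

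The scaled level of each subunit varied less than 2-fold over the conditions. The highest of the 4 standard lists was a median 1.24-fold above the lowest, and 0 of 30 subunits reached 2-fold, against a median of 1.43-fold and 227 of 2598 genes at 2-fold or more. The comparison genes needed a sum of at least 200 P-sites over the standard lists. They were not matched to the subunits in number of P-sites, and counting error widens such a range where counts are low. The widest ranges were those of Prosbeta4 (1.90-fold), Rpt2 (1.89-fold), Rpn7 (1.67-fold) and Rpn3 (1.63-fold). For Prosbeta4 the lowest list (A+) and for Rpn7 the highest list (E+) had called a shorter ORF than the other lists. For Rpt2 the lowest list (E+) and the highest (A-) had called the same form of 1101 nt. Rpn3 had a shorter ORF in A-, which was neither its lowest nor its highest list.

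Some members of the family had no ORF. The annotation lists 48 genes by the symbols above, 32 in the 4 classes and 16 paralogs. Of the 32 class genes, 30 had an ORF in all 5 lists. The exceptions were Prosalpha1 and Rpt1, both on 2R. By the same rule, 6151 of all 13962 protein-coding genes had an ORF in any list. The list with the fewest, A-, had ORFs of 3865 genes, so at most 3865 had one in all 5 lists.

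No list held an ORF overlapping Prosalpha1 (7827303 to 7828678) or its paralog Prosalpha1R, whose span lies 1734 nt from it. The authors removed ORFs that rested too far on multimapping reads, and the part of that step here was not tested.

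Rpt1 was left out by the rule alone, since its only ORF also lay in the span of CG17985. This ORF of 1299 nt (7652539 to 7653836, minus strand) had a scaled level of 76.9 in E+, 83.6 in deep E-, 83.6 in E-, 69.8 in A+ and 66.8 in A-. In each list it lay between Rpt6 and Rpn1.

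Of the 16 paralogs, 14 had no ORF in any list, while 6151 of all 13962 protein-coding genes had one. Rpt6R, an Rpt6 paralog known from the male germ line, had 49 P-sites in E+, 461 in deep E-, 37 in E- and 34 in A-, and was not called in A+. Its density in deep E- was 38.5 P-sites per 100 nt (35.1 to 42.2), at the percentile 57.6 of all genes, against 493 for Rpt6. Rpt3R had an ORF in deep E- alone, with 12 P-sites over 1110 nt, at the percentile 1.95. Of the 8 markers of testis and germ line, 2 had P-sites in deep E-, and their part in the values of the paralogs was not tested.

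Cycloheximide was compared over ORFs called from the same start codon in both lists with at least 50 P-sites between them. With E-RNaseI, 20 subunit ORFs could be compared. Their median log2 ratio of E+ over E- was 0.01, against 0.00 over all 2759 ORFs, with 10 above and 10 below 0. None (0 of 20) passed 2-fold, against 2.68% of all ORFs, and 1 passed 1.5-fold, against 14.8%. Beside a share of 2.68%, 0 of 20 does not set the subunits apart. All ORFs were not matched to the subunits in number of P-sites.

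The ratio past 1.5-fold was that of Rpn3, with 409 P-sites in E+ and 217 in E-, a scaled ratio of 0.61 (95% interval 0.52 to 0.73). It stood at the percentile 2.5 of all ORFs. Against deep E-, with 2629 P-sites, it was 0.72 (0.65 to 0.80), inside the 1.5-fold limit. Rpn1 followed with 1297 P-sites in E+ and 570 in E-, a ratio of 0.74 (0.67 to 0.82), and of 0.80 (0.75 to 0.85) against deep E-. On the other side Prosbeta4 had 684 P-sites in E+ and 168 in E-, a ratio of 1.33 (1.12 to 1.58), and the same 1.33 (1.22 to 1.45) against deep E-. The interval left out 1 for these 3 of 20, against 28.9% of all ORFs.

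The deep list allowed 27 subunits to be compared, among them some whose start differed in E-. Rpn2, with 579 P-sites in E+ and 3764 in deep E-, had a ratio of 0.71 (0.65 to 0.78). Prosbeta1, with 394 in E+ and 1354 in deep E-, had a ratio of 1.35 (1.20 to 1.51). Of the 27, 0 passed 2-fold, against 2.72% of all 4896 ORFs, and the median log2 ratio was -0.04, against 0.02 over all.

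With A-RNaseI, 22 subunit ORFs could be compared, in libraries not used for E-RNaseI. Their median log2 ratio of A+ over A- was 0.01, against 0.00 over 1707 ORFs. Again 0 passed 2-fold, against 0.937% of all ORFs, and 0 passed 1.5-fold, against 8.44%. The interval left out 1 for 8 of 22, against 27.7% of all ORFs. It lay above 1 for Rpn8, Rpt5, Rpn11 and Prosalpha5 and below 1 for Rpn2, Rpn7, Prosbeta3 and Prosbeta5.

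Rpn8 had the highest of these ratios, with 149 P-sites in A+ and 73 in A-, a ratio of 1.44 (1.08 to 1.93). Rpn2 had the lowest, with 325 in A+ and 300 in A-, a ratio of 0.76 (0.65 to 0.90). Rpn2 was therefore the subunit whose interval lay below 1 with both RNases, though with E-RNaseI only against deep E-. Rpn11 was its counterpart above 1, with 1.25 (1.01 to 1.55) for A-RNaseI and 1.19 (1.09 to 1.31) for E-RNaseI, again only against deep E-. Against E- the ratio of Rpn11 was 1.17 (0.98 to 1.40), an interval that holds 1. Rpn1, which was lower in E+, had a ratio of 0.94 (0.84 to 1.05) with A-RNaseI. Prosbeta3 had 1.09 (0.97 to 1.23) with E-RNaseI and 0.82 (0.73 to 0.92) with A-RNaseI. Against deep E- its ratio with E-RNaseI was 0.97 (0.91 to 1.03), which overlaps the interval of A-RNaseI.

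**Figure D2:**
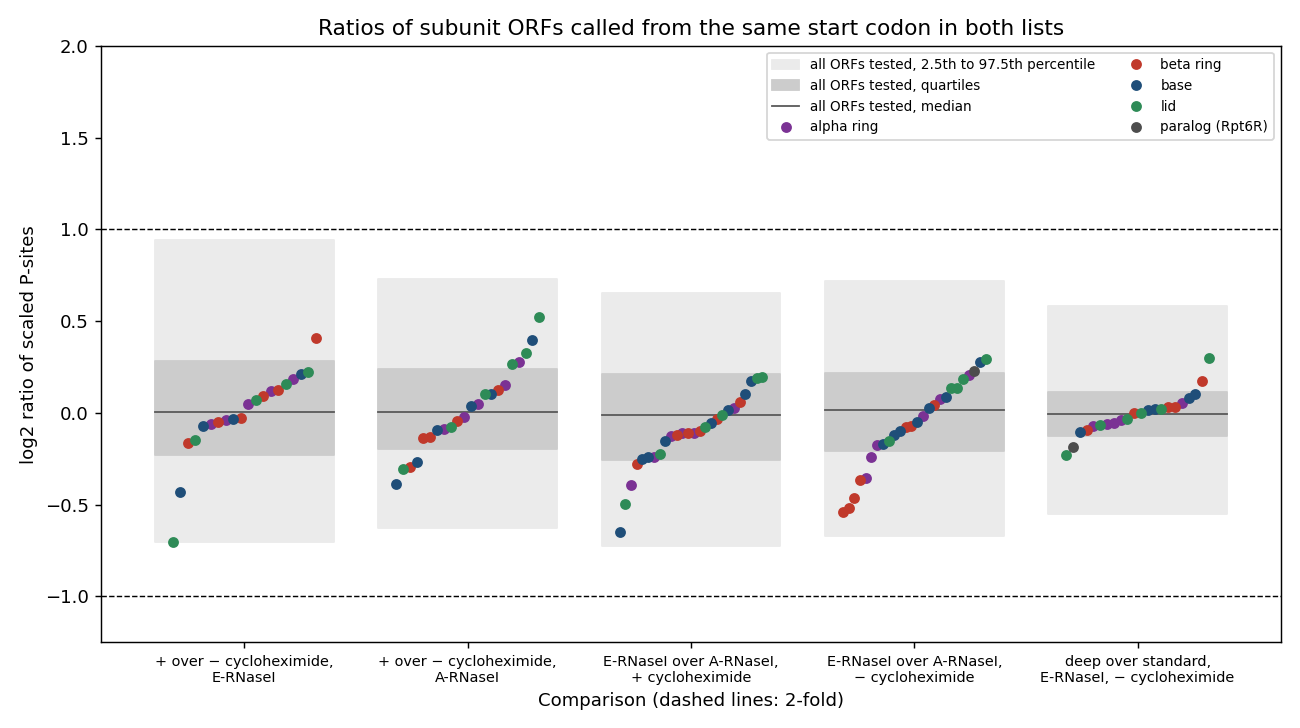
Log2 ratios of scaled P-sites of the member ORFs (points, coloured by class, in rising order) in the 5 comparisons, over grey bands for all ORFs compared. No member reaches the dashed 2-fold lines in any comparison, and most lie within the quartiles of all ORFs.

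**Figure D3:**
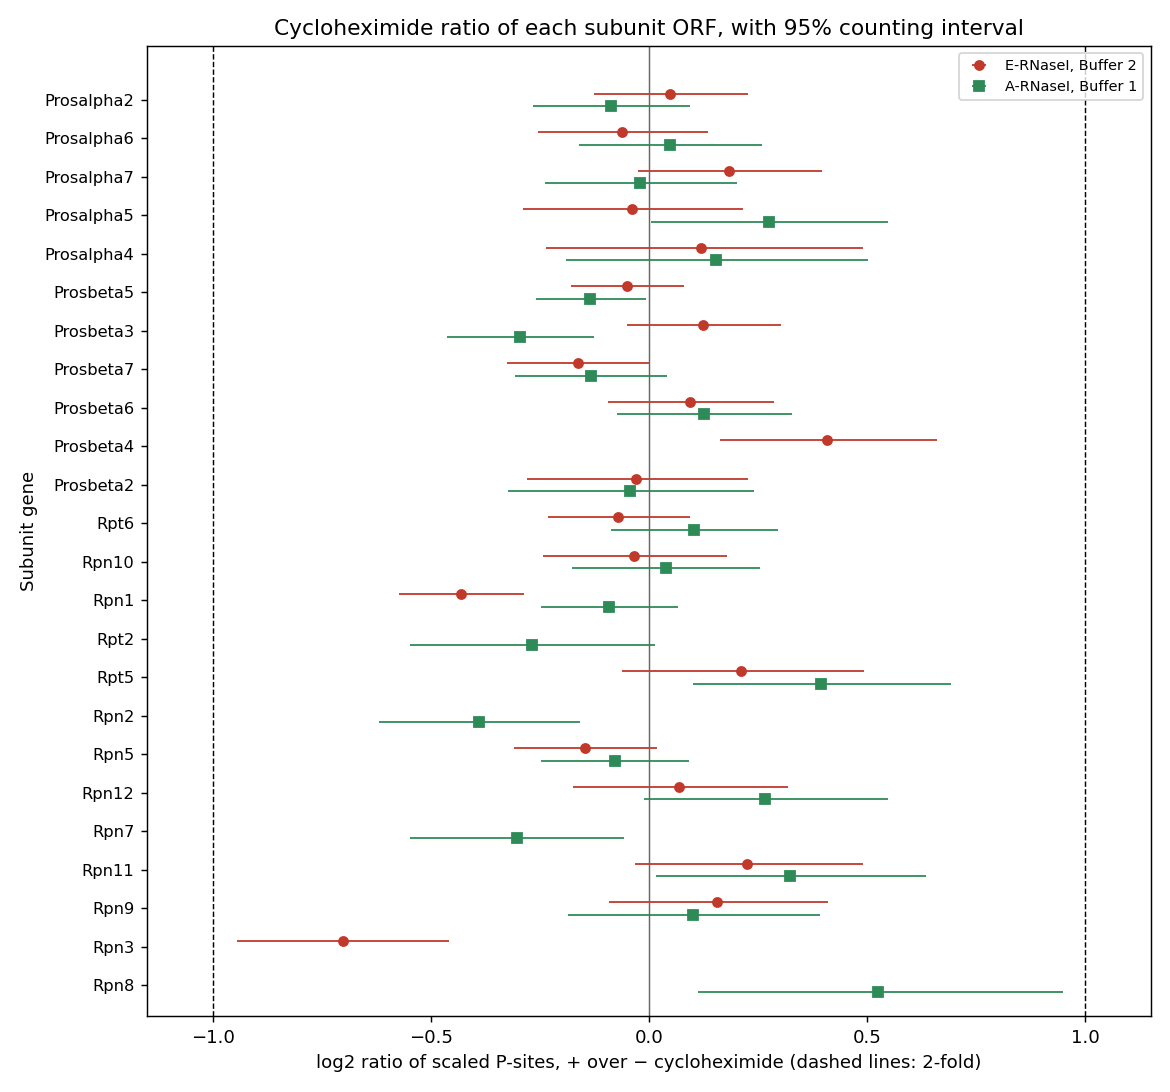
Log2 ratio of scaled P-sites, + over - cycloheximide, of each subunit ORF with its 95% counting interval, for E-RNaseI (circles, standard lists) and A-RNaseI (squares). Rpn3 and Rpn1 have the lowest values with E-RNaseI and Rpn2 with A-RNaseI. Below 0 are 10 of 20 subunits with E-RNaseI and 11 of 22 with A-RNaseI, and 18 subunits have a value with both.

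With E-RNaseI the rank correlation of length and ratio was negative, but against E- the medians fell only for the longest ORFs. The rank correlation between ORF length and log2 ratio was -0.48 over the 20 subunits and -0.20 over all ORFs, and against deep E- it was -0.60 over 27 subunits and -0.27 over all. With A-RNaseI it was -0.12 over 22 subunits and -0.13 over all. For E+ over E- the median log2 ratio was 0.06 over the 12 shortest subunit ORFs and 0.06 over the 6 next in length. Against deep E- it was 0.04 over the 13 shortest, -0.05 over the next 11 and -0.32 over the 3 longest. Of the ORFs of at least 1500 nt, Rpn1 and Rpn5 were compared between E+ and E-. Their log2 ratios were -0.43 and -0.15, against a median of -0.08 over 1067 ORFs of that length. These correlations are descriptions over ORFs of the same libraries.

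The RNases with their buffers were compared in the same way. In the presence of cycloheximide, 26 subunit ORFs had a median log2 ratio of E+ over A+ of -0.11, against -0.01 over 2764 ORFs, and 19 of 26 were below 0. None (0 of 26) passed 2-fold, against 0.796% of all ORFs, and 1 passed 1.5-fold, against 9.15%. That one was Rpt2, with 297 P-sites in E+ and 232 in A+, a ratio of 0.64 (0.54 to 0.76), from the shorter of its start codons in both lists. The interval lay below 1 for 8 subunits, among them Rpn8 (0.71), Prosalpha4 (0.76), Prosbeta5 (0.82) and Rpn1 (0.84), against 18.4% of all ORFs, and above 1 for 0, against 15.8%.

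In the absence of cycloheximide, 26 member ORFs, among them the paralog Rpt6R, had a median log2 ratio of E- over A- of -0.06, against 0.02 over 1935 ORFs. Here 0 passed 2-fold, against 0.93% of all ORFs, and 0 passed 1.5-fold, against 8.99%. The class medians differed, with ranges that overlapped. The median was -0.36 over 7 beta subunits (-0.54 to 0.04), -0.09 over 6 alpha subunits (-0.36 to 0.21), -0.05 over 7 base subunits (-0.17 to 0.28) and 0.14 over 5 lid subunits (-0.15 to 0.30).

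The interval lay below 1 for 5 of the 26, all of the core, against 11.7% of all ORFs. Prosbeta3 had 343 P-sites in E- and 538 in A-, a ratio of 0.69 (0.60 to 0.79). Prosbeta4 (0.70), Prosbeta1 (0.72), Prosbeta5 (0.78) and Prosalpha2 (0.85) were the others. The base ATPase Rpt6 was the 1 member with an interval above 1, against 13.2% of all ORFs, with 418 P-sites in E- and 372 in A-, a ratio of 1.21 (1.05 to 1.40).

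With deep E- in place of E- the class medians were -0.37 over 5 beta subunits, -0.23 over 5 alpha subunits, 0.04 over 4 base subunits and 0.13 over 6 lid subunits. In the presence of cycloheximide they were -0.10 for the beta ring, -0.12 for the alpha ring, -0.11 for the base and -0.04 for the lid. The difference of the class medians was noticed in the values and was not tested, and the classes differ in ORF length, as given above. The rank correlation of length and ratio was 0.44 over the 26 members in the absence of cycloheximide, against -0.01 over all ORFs. The comparisons of RNases share their libraries with those of cycloheximide and are not independent of them.

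Between deep E- and E-, 22 member ORFs were compared, among them Rpt6R. Here 0 passed 2-fold, against 0.502% of all 2989 ORFs, and 0 passed 1.5-fold, against 4.42%. The median log2 ratio of deep E- over E- was 0.00, and the values ran from -0.23 for Rpn3 to 0.30 for Rpn12. The interval left out 1 for 3 of 22, against 4.22% of all ORFs, and these were Rpn12 (1.06 to 1.44), Prosbeta3 (1.01 to 1.26) and Rpn3 (0.74 to 0.99).

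The start codon from which an ORF was called differed between lists for a part of the subunits. RiboTaper takes the most upstream in-frame ATG with enough P-sites before the next one, so that a called start depends on the reads near it. Between E+ and E-, 11 of 31 member ORFs had different starts, against 48.1% of all ORFs, and the longer form was in E+ for 8 of the 11, against 76.5% of all ORFs that differed. Between A+ and A- 8 of 30 differed, against 55%, and the longer form was in A+ for 7 of the 8, against 64.6%. Between E+ and A+, 4 of 30 differed, against 44%, with the longer form in E+ for 3, against 76.5%. Between E- and A- 5 of 31 differed, against 49.5%, with the longer form in E- for 3, against 58.5%. Between deep E- and E- 9 of 31 differed, against 48.3%, and the longer form was in deep E- for all 9, against 85.8%.

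Over all 5 lists, 17 of the 30 subunits kept 1 start codon, against 28.1% of the 3851 stop codons found in every list. Among the 1845 stop codons with at least 1000 P-sites in deep E-, as all 30 subunits had, the share was 40.4%. The deep list held the longest form for 30 of 30 subunits, against 89.7% of all, or 97.1% of those with at least 1000 P-sites.

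A group of 5 subunits, Prosalpha3, Prosbeta1, Rpn13, Rpt3 and Rpt4, had the same pattern. Each had its longer form in E+, deep E- and A+ and its shorter form in E- and A-. Of all stop codons, 5.58% had a longer form in both lists with cycloheximide and a shorter one in both standard lists without it, and 4.62% had in addition the longer form in deep E- (6.23% with at least 1000 P-sites). The pattern was singled out after the values were seen. No subunit had the opposite pattern.

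Prosalpha3, an alpha subunit, was called with 792 nt in E+, deep E- and A+ and with 720 nt in E- and A-, a difference of 24 codons at the start (2R, plus strand, 20994992 or 20995173). It had 571 P-sites in E+, 2981 in deep E-, 210 in E-, 307 in A+ and 196 in A-. At the mean density of the called ORF the 24 codons left out would hold 21.0 P-sites in E- and 19.6 in A-. Such figures, here and below, take the P-sites as evenly spread and are not counts of reads in the codons left out. The paper reports an uneven spread, with reads gathered at the start of coding sequences under cycloheximide and near the stop codon without it.

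Prosbeta1 was called with 672 nt in the lists with the longer form and with 618 nt in E- and A-, 18 codons less. Rpn13, a ubiquitin receptor of the base, was called with 1272 and 1146 nt, 42 codons apart, and a second transcript of it with the same stop codon moved alike (1167 and 1041 nt). Rpt4 was called with 1191 and 1170 nt and Rpt3 with 1239 and 1227 nt, 7 and 4 codons apart. At the mean density, the codons left out would hold 7.2 P-sites in E- and 10.7 in A- for Prosbeta1, 17.2 and 19.1 for Rpn13, 3.5 and 4.1 for Rpt4, and 2.0 and 2.3 for Rpt3. The lists with the longer form were also the deeper ones of each RNase, and the part of depth in this pattern was not tested. The deep list, without cycloheximide, had the longer form in all 5.

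**Figure D4:**
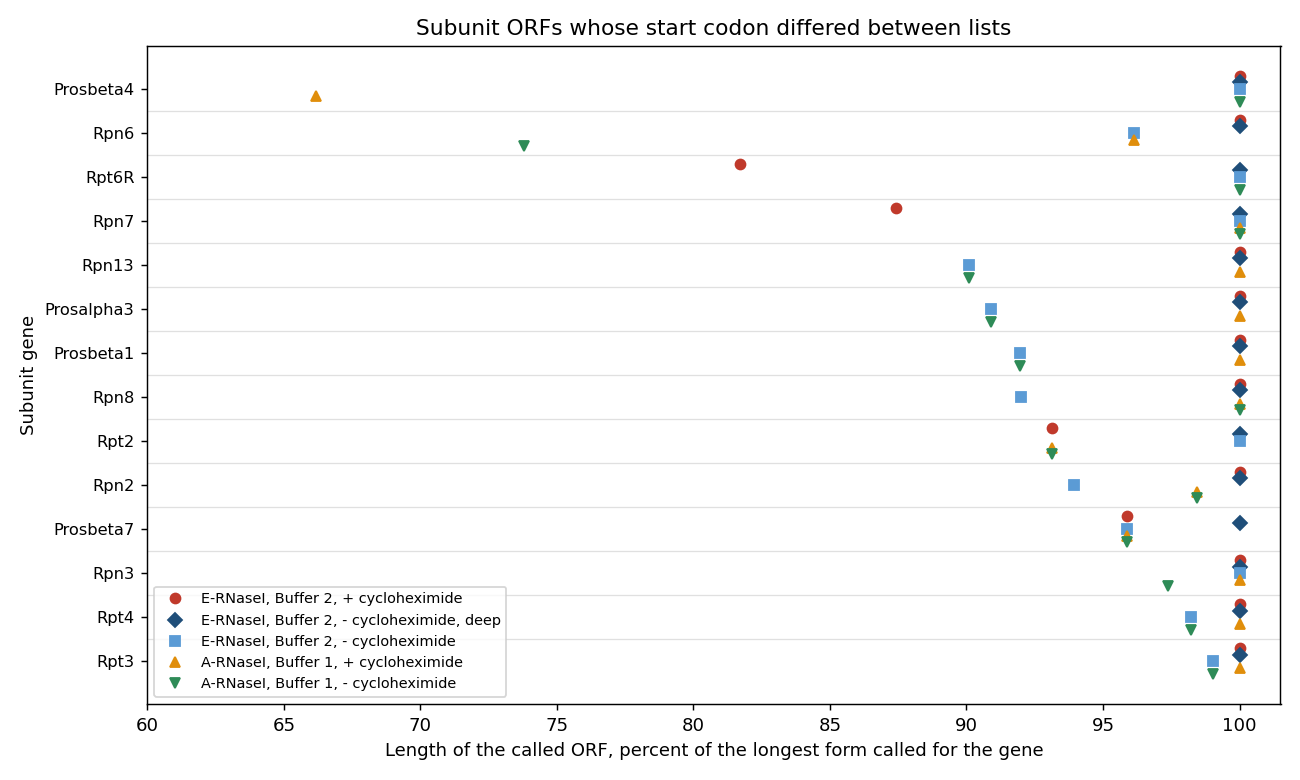
Length of the called ORF, as percent of the longest form called for the gene, in each list for the 14 member genes whose start codon differed. Prosalpha3, Prosbeta1, Rpn13, Rpt3 and Rpt4 are shorter in E- and A- (squares and downward triangles), and the deep list (diamonds) is at 100 percent for every gene.

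The other genes had other patterns. Rpn6 was longer with cycloheximide for both RNases, Rpn2 and Rpn8 were longer in E+ than in E-, and Rpn3 was longer in A+ than in A-. Rpn7, Rpt2 and Rpt6R were shorter in E+ than in E-, and Prosbeta4 was shorter in A+ than in A-. Prosbeta4, a structural beta subunit, was called with 399 nt in A+ and with 603 nt in the other lists, so that 68 codons were left out in A+. There it had 128 P-sites, and 259 over the longer form in A-. The 68 codons would hold 65.4 P-sites at the density of A+.

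Rpn7, a lid subunit, was called with 1020 nt in E+, the deepest standard list, and with 1167 nt in the other lists. It had 877 P-sites in E+, and the 49 codons left out would hold 126.4 at that density. Rpt2 had its shorter form of 1101 nt in E+, A+ and A- and its longer form of 1182 nt in deep E- and, with 140 P-sites, in E-. The part of depth in these differences was not tested.

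Rpn6, a scaffold of the lid, had as its longest ORF 1317 nt in E+ and deep E-, 1266 nt in E- and A+ and 972 nt in A-. The 1317 nt form belonged to another transcript than the others, with a different first part. The 1266 nt form was called beside it in E+, with 648 P-sites, and in deep E-, with 3353, so that these lists differed from E- and A+ by an added form and not by the loss of the 1266 nt one. Rpn2 had 3060 nt in E+ and deep E-, 2874 nt in E- and 3012 nt in A+ and A-. Rpn8 was shorter in E- alone (933 against 1014 nt) and Rpn3 in A- alone (1443 against 1482 nt). Prosbeta7 was longer in deep E- alone (804 against 771 nt). The paralog Rpt6R was called with 978 nt in E+, from 49 P-sites, and with 1197 nt in deep E-, E- and A-. All these forms share the reading frame and the stop codon of the longer one.

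Genes that act with the proteasome were taken from a list of 16. Of these, 12 had an ORF in all 5 lists and 2 in none, the F-box protein ntc and the polyubiquitin gene Ubi-p63E. Of all 13962 protein-coding genes, 6151 had an ORF in any list and at most 3865 in all 5. For the genes of this list with an ORF, levels were read in deep E-. Their densities in deep E- ran from 20.5 P-sites per 100 nt for cnc, a transcription factor that activates proteasome genes, to 720.1 for TER94, the segregase that extracts ubiquitinated proteins. The median over 14 genes was 131, against 306 for the subunits.

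Pomp, a chaperone of core assembly, had a density of 487 P-sites per 100 nt in deep E- and 425 P-sites in E+, 1957 in deep E-, 143 in E-, 184 in A+ and 154 in A-. Sem1, a small lid protein whose symbol lies outside the rule, had 74 P-sites in E+, 543 in deep E-, 39 in E- and 36 in A+, and was not called in A-. Its density in deep E-, 229 P-sites per 100 nt, was near the median of the lid.

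Between E+ and E- 8 of these genes could be compared, between A+ and A- 5, and 0 passed 2-fold in either. Their log2 ratios of E+ over E- ran from -0.69 for Sem1 to 0.56 for REG, the activator of the core particle. With A-RNaseI, A+ over A-, they ran from -0.25 for Pomp to 0.26 for PI31, a regulator of the proteasome. PI31 had -0.58 with E-RNaseI, on the other side of 0.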

How the data were processed

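Ribo-Seq footprints of *D. melanogaster* S2 cells were analysed from 5 lists of translated ORFs. The authors used Cutadapt 2.10 for adapters, Bowtie2 2.4.1 against rRNA and tRNA, STAR 2.7.5c for mapping to Release 6, SAMtools 1.10 and, for ORFs, RiboTaper. The deposited lists give, for each ORF, a whole number read here as its count of P-sites, not normalized. An exon had to exceed 5 P-sites, 50% of P-sites had to be in frame, and ORFs supported over 30% of their coverage by multimapping reads alone were removed. The methods subsampled alignments before ORF calling and used other read lengths for each condition; the sources used here do not say whether the standard lists are from subsamples.

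Exon lines were joined by identifier, and the longest ORF of each stop codon was kept (Python 3.11.15, numpy 2.4.6, pandas 2.3.3, scipy 1.17.1). Gene names came from a RefSeq table of Release 6 with 13962 protein-coding genes, matched by position without strand. Coordinates count from 1, and 1 edge may be off by 1 nt. Lists were scaled on the P-sites of the ORFs common to all 5. These were 1544 by identifier, of which 1 was kept for each of 1165 stop codons. Ratios have exact binomial intervals, densities exact Poisson intervals and shares of P-sites exact binomial intervals, all at 95% and for counting error only. The steps of the comparison were run on simulated lists with planted ratios and starts and with counting noise alone. The spread between conditions was wider, as given above, and the simulation does not cover it.

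Members and gene lists were chosen with earlier results of these data known. Values in every list are given for the 2 highest and 2 lowest subunits of each class by density in deep E-, for subunits whose start differed or that were missing from a list, and for paralogs with an ORF. Alternatives were the scale, any start codon, P-site minimums of 0, 20 and 200, a 1.5-fold limit, other gene and ORF rules, and, chosen after seeing the data, the deep list in place of E-. The start codons were not set against annotated proteins, whose sequences were not used here.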

Additional observations from a re-analysis of the deposited data

Results flagged for a closer look

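Besides the ORF of Rpt1 given above, the deep E- list held 2 ORFs that overlapped a subunit gene and were used in no comparison. Each of the 2 lay in the spans of both Rpn8 and Slik. Both were uORFs on the minus strand of 2R, opposite to the ORF of Rpn8. One, from 24402598 to 24402671, had 60 P-sites over 75 nt, and the other, from 24402029 to 24402135, had 18 P-sites over 108 nt. They were set aside because they are signal outside the measurement of the subunits, found in the deep list and in none of the 4 standard lists, and the difference between the lists was not tested.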

How the results depend on the processing

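Of 89 alternative values, 80 stayed within the counting interval of the reported value or within 1.5 times the reported count. With a 1.5-fold limit in place of 2-fold, 1 subunit passed in E+ over E- and 1 in E+ over A+, against 0. With deep E- in place of E-, chosen after seeing the data, the median log2 ratio of E+ over E- was -0.04226 over 27 subunits, on the other side of 0 from the reported 0.01. With any start codon, that of A+ over A- was -0.04995 over 30 subunits, against 0.01. Counting overlapping ORFs of a strand once, the share of P-sites on the members was 1.31% in E+, 1.33% in deep E-, 1.38% in E-, 1.47% in A+ and 1.57% in A-; fewer P-sites are then counted in the total. The limitation to ORFs of annotated protein length was not run. No paired analysis was possible because each condition had 1 standard sample and no test was made. Depth limits the standard lists: E- had 60 P-sites on Rpn8 and 82 on Prosbeta1, so that ratios of these subunits have wide intervals, and a gene without an ORF may have had too few P-sites to be called.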
